A study of Mus musculus with 8 samples.

Results

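Apoe encodes apolipoprotein E, a secreted protein that carries cholesterol and other lipids between cells. The gene was 1 of the 9140 genes of the deposited matrix and was chosen because its measured level rose over the days of differentiation, so its levels and day ratios are given here as a description. In the brain apolipoprotein E is made mainly by astrocytes and, after injury, by microglia. The protein receives cholesterol through ABC transporters such as the product of Abca1, and the particles are taken up by neighbouring cells through lipoprotein receptors such as the product of Lrp1. Its transcription responds to sterol-sensing liver X receptors, whereas the enzymes of cholesterol synthesis respond to SREBP factors when sterol is scarce.

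The cells were neural stem and progenitor cells from the dentate gyrus of mouse embryos at embryonic day 18 as the labels give it (the methods of the study name the preceding day). Mothers were C57BL/6J and fathers carried the Kmt2d+/βgeo allele, a gene trap labelled Mll2Gt(RRt024)Byg in the gene of a histone methyltransferase. The cultures of one group were labelled Kmt2d+/βgeo, and those of the other C57BL/6J with a wildtype allele, which the growth protocol describes as Kmt2d+/+ littermates. Both were grown with EGF and FGF2 (day 0) and collected 2, 4 and 8 days after these factors were withdrawn. Each of the 8 combinations of genotype and day was 1 droplet 3′-end library. With 1 library per genotype and day no test between groups was run, cells were not treated as replicates, and every interval below covers counting error only. A difference between genotypes cannot be told apart from one between cultures, embryos or library preparations.

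The libraries held 2534 to 4900 cells, with a median of 3972 to 11230 unique molecular identifiers (UMIs, each marking 1 captured RNA molecule) on the matrix genes per cell. The shallowest was the day 8 library labelled Kmt2d+/βgeo, at 3972 against 6989 in its wild-type counterpart. Any 2 libraries shared between 0 and 10 cell barcodes. Of the defining progenitor markers, Nes and Sox2 were not in the matrix, while Fabp7 and Vim stood at 15.0 to 43.5 and 30.3 to 86.6 normalised counts in all 8 libraries. The mean level of Kmt2d lay between 0.157 and 0.295 normalised counts in the 8 libraries. It was not lower under the Kmt2d+/βgeo label on days 0, 4 and 8, and whether its tags lie outside the trapped part was not tested, so genotypes are named by label throughout. The 2 libraries of day 4 were alike: 0 of 7459 genes differed by an absolute log2 ratio of 1 or more. Of 29 genes that passed this threshold in 1 direction on days 0, 2 and 8, the largest absolute log2 ratio on day 4 was 0.44. A day 4 label is therefore in doubt, and these values do not tell which of the 2. The genes that lead the correlations and those most like Apoe are also given without the day 4 library labelled Kmt2d+/βgeo.

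Apoe (ENSMUSG00000002985) lies on the minus strand of chromosome 7 from 19696109 to 19699188 on GRCm38. GENCODE M21 lists 11 transcripts of it, 9 of them protein coding, and the transcript Apoe-201 has 4 exons with 933 coding bases of 1128 exon bases. The deposited values are per gene and do not tell these transcripts apart.

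Apoe rose from rank 71 and rank 200 among the matrix genes at day 0 to the most abundant gene by day 2 under both labels. The mean normalised count per cell in the libraries labelled Kmt2d+/βgeo, from day 0 through days 2, 4 and 8, was 14.1, then 210, 244 and 94.7. In those labelled wild type it was 5.88, 150, 224 and 230 on the same days. The normalised count is the UMI count of a gene after each cell was scaled to the same total of 8707.1 over the matrix genes. Levels are per UMI and are not divided by gene length, which 3′ tags do not call for. Both day 0 libraries were thus far below all later ones, and the 2 series parted at day 8, where the level had come down under the Kmt2d+/βgeo label and had stayed up under the wild-type label.

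Ranks are by mean normalised count, with the library labelled Kmt2d+/βgeo first. Apoe ranked 1 in all 4 libraries of days 2 and 4, ahead of Eef1a1 or Cst3 on day 2 and of Dbi on day 4. On day 8 it ranked 5, below Dbi, Tmsb4x, Mt3 and Rpl41, and 2, below Dbi. Of all matrix UMIs it made up 0.134% and 0.0567% in the day 0 libraries, 2.52% and 1.81% in those of day 2, 2.88% and 2.67% in those of day 4, then 1.18% and 2.61%. Only 46.6% of a cell's UMIs (median) fell on the matrix genes, so these shares are not shares of the whole transcriptome.

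Pooled over the cells of a library, the order from high to low was day 4 labelled Kmt2d+/βgeo (288 Apoe UMIs per 10000 matrix UMIs, 95% Poisson interval 288 to 289), day 4 wild type (267), day 8 wild type (261), day 2 Kmt2d+/βgeo (252), day 2 wild type (181), day 8 Kmt2d+/βgeo (118) and the 2 day 0 libraries (13.4 and 5.67). No pair of neighbours in this order had overlapping counting intervals. These intervals treat each UMI as independent and leave out the spread of Apoe over cells, so they are too narrow. The closest were day 4 and day 8 wild type, whose log2 ratio was 0.03 (95% exact conditional interval 0.03 to 0.04). Such gaps of a few percent are within what 1 library per group cannot resolve, since the spread between cultures is unknown. By mean normalised count the order of these 2 libraries was the reverse, 224 against 230.

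Relative to day 0, the log2 ratios of mean normalised counts on days 2, 4 and 8 were 3.89, 4.11 and 2.75 in the libraries labelled Kmt2d+/βgeo, or 14.9-fold, 17.3-fold and 6.71-fold. Under the wild-type label they were 4.67, 5.25 and 5.29, or 25.5-fold, 38.1-fold and 39.1-fold. From the highest, the day 2 ratio of Apoe ranked 8 of 7502 genes compared in the first series and 2 of 7451 in the second. Ratios of pooled UMIs, in which deep cells weigh more, were larger: 4.23 (95% interval 4.22 to 4.24) and 4.998 (4.98 to 5.01) at day 2. From day 4 to day 8 the pooled ratio fell by 1.29 (log2) under the Kmt2d+/βgeo label and by 0.03 under the wild-type label. Without the day 4 libraries the same holds in direction for the former, which fell by 1.10 from day 2 to day 8, while the latter stood 0.53 above day 2.

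Between labels, Apoe was 2.4-fold higher under Kmt2d+/βgeo on day 0, with a log2 ratio of 1.26 (pooled 1.24, 95% interval 1.22 to 1.26). On day 2 it was 1.4-fold higher, with a log2 ratio of 0.49 (pooled 0.48, 0.47 to 0.48). The day 4 libraries differed by a log2 ratio of 0.12 (pooled 0.11, 0.105 to 0.114). Those of day 8 differed by -1.28 (pooled -1.15, -1.16 to -1.14), a level 2.43-fold higher under the wild-type label. Only days 0 and 8 passed an absolute log2 ratio of 1, with opposite signs. As a difference of mean log2 values, in which cells with much Apoe weigh less, the day 0 value was 0.75 and below that threshold. The ratio of day 8 ranked 87 from the lowest of 7576 genes compared, of which 2.81% were lower and 2.06% higher by this threshold.

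**Figure D1:**
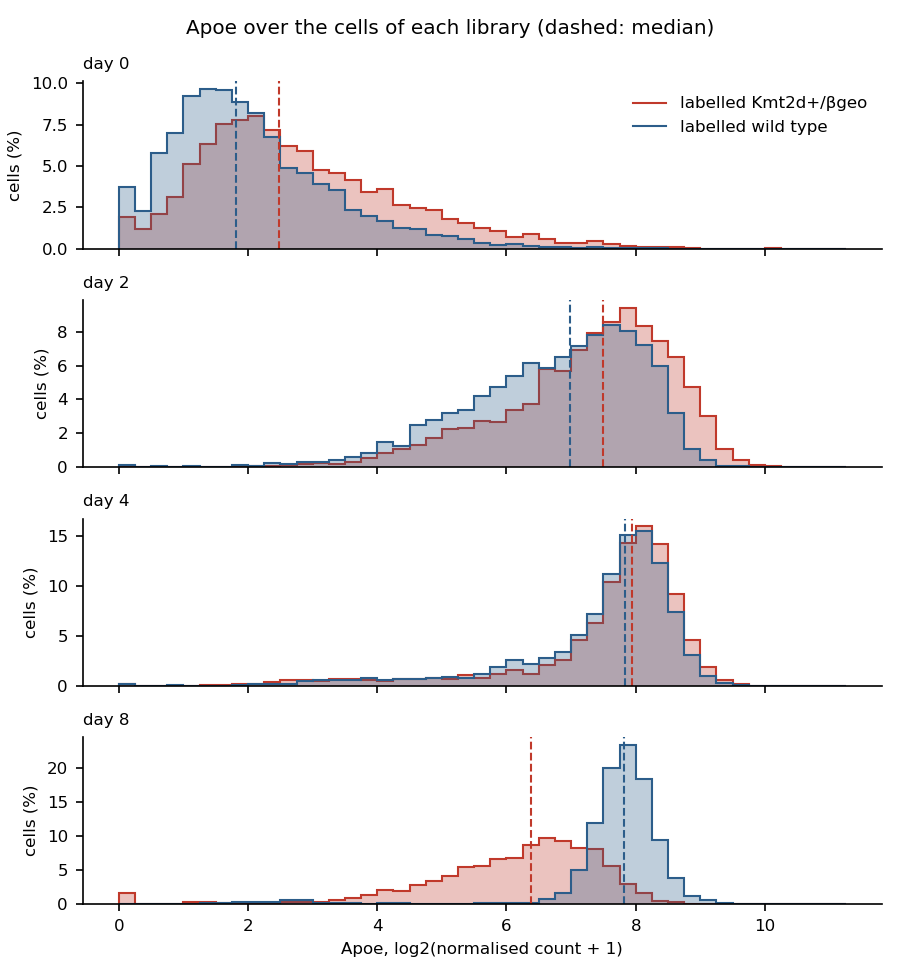
Distribution of Apoe over cells, one panel per day, as percent of cells (vertical axis) in bins of 0.25 of log2(normalised count + 1) (horizontal axis); colours mark the label and dashed lines the median. Day 0 cells pile up at the low end with a long right tail, and at day 8 the medians of 82.6 and 224 normalised counts stand apart.

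Nearly every cell had at least 1 Apoe UMI in every library, and the libraries differed in its amount per cell. An Apoe UMI was found in 98.2% and 96.3% of day 0 cells and in 98.95% to 100% of the cells of later libraries. After thinning each cell to 3000 UMIs, which left out 23 and 0 cells at day 0 and 765 and 4 at day 8, the share was 75.6% (95% binomial interval 74.3 to 76.9) and 63.4% (62.0 to 64.7) at day 0. On the other days it lay between 98.8% and 99.8%. Free RNA in droplets also gives UMIs in cells that do not express a gene. No cell type that should lack Apoe was defined here, so the part of free RNA in the shares was not tested.

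At day 0 a minority of cells carried most of the Apoe. The median normalised count was 4.59 under the Kmt2d+/βgeo label and 2.53 under the wild-type label, against means that were 3.07 and 2.33 times as high. The 95th percentiles were 53.1 and 20.5, and the highest cells reached 1157 and 346. The 10% of cells with most Apoe held 58.9% and 53.3% of it. These shares fell to 25.5% and 25.1% at day 2 and 19.6% in both libraries of day 4, and were 24.7% and 17.1% at day 8.

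Some day 0 cells reached the low end of the Apoe range of day 2 cells. The 5th percentile of day 2 cells was 25.5 normalised counts under the Kmt2d+/βgeo label, and 529 of 4331 day 0 cells of that label (12.2%, 95% interval 11.25 to 13.2) were at or above it. For the wild-type label the percentile was 18.7, and 277 of 4857 cells (5.70%, 5.07 to 6.39) reached it. The cells of day 0 and day 2 thus overlapped in Apoe while their medians differed widely, 4.59 against 179 and 2.53 against 125. The 99th percentiles of day 0 cells, 169 and 52.5, lay below these day 2 medians.

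With each cell at 3000 UMIs, the variance of Apoe counts over their mean was 33.3 and 13.1 in the day 0 libraries and 39.1 and 28.5 in those of day 2. It was 24.0 and 22.2 on day 4, then 14.2 and 11.5 on day 8. The median of this ratio over the 424 to 461 genes with a thinned mean of at least 1 was 1.15 to 1.21, and Apoe ranked between 1 and 3 in every library. These genes were not matched to Apoe in level. A ratio of variance over mean can rise with the mean, so this rank is a description and supports nothing about Apoe. Relative to the mean, the spread shrank: the coefficient of variation was 2.63 and 2.53 at day 0 and 0.613 and 0.380 at day 8. The narrowest distribution was that of day 8 wild type, whose middle 50% of cells lay between 183 and 274 normalised counts.

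The day 8 difference between labels was a shift of nearly the whole distribution. A cell drawn from the library labelled Kmt2d+/βgeo had more Apoe than one drawn from the wild-type library in 10.2% of pairs, against 64.9% at day 0, 61.3% at day 2 and 54.4% at day 4. Depth moved with Apoe in the former: in 4 equal bins of its cells, from shallow to deep, the mean was 52.6, 92.5, 119 and 115 normalised counts. The deepest bin, with a median of 5583 UMIs, had a mean of 115, and the shallowest bin of the wild-type library, with a median of 5308 UMIs, one of 236. The correlation of Apoe with log2 depth over cells was -0.19 and -0.25 on day 0, between 0.27 and 0.36 on days 2 and 4, then 0.41 and 0.08 on day 8.

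At day 0 Apoe was lower in cells with markers of S, G2 and M phase. A cell-cycle position θ was computed for day 0 cells as the angle in the plane of principal components 1 and 2 of 41 S and G2/M genes. Curves along it were fitted by periodic loess. Top2a, the topoisomerase of dividing cells, peaked near π (1.04π and 1.01π). Fitted Apoe was lowest at 0.69π and 0.77π, at log2 values of 2.10 and 1.47, and highest at 1.86π and 1.87π, at 3.36 and 2.35. Position accounted for little of the variation of Apoe, with an R2 of 0.114 and 0.0851, against 0.725 and 0.705 for Top2a. Top2a is 1 of the 41 genes that define θ, so its own R2 is partly set in advance. Fitted total UMIs ran the other way, highest at 0.84π and 0.80π. At equal depth, day 0 cells without a Top2a UMI averaged 6.21 and 2.40 Apoe UMIs, and those with one 2.50 and 1.39, while before thinning the latter were deeper (medians of 14170 and 12498 against 10253 and 8661 UMIs). The curve of the wild-type label lay below the other at the low and at the high point. The lower Apoe of cells with a Top2a UMI was not particular to day 0. They averaged less than the other cells in every later library as well, though few cells had such a UMI. On day 8 the means were 17.3 (23 cells) against 37.8 and 52.0 (53 cells) against 79.8.

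**Figure D2:**
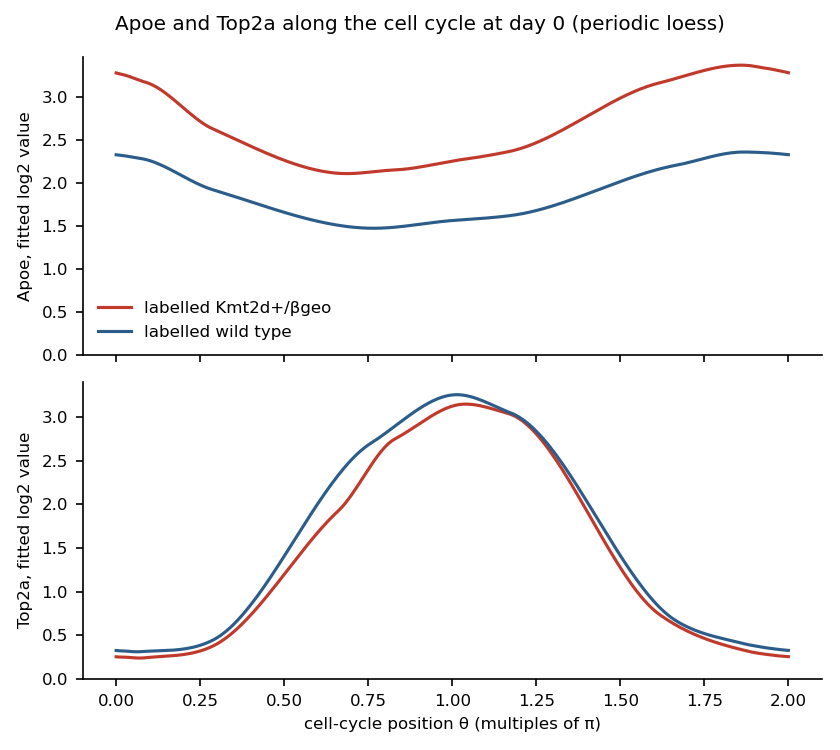
Periodic loess fits of Apoe (top) and Top2a (bottom), in log2 values, against cell-cycle position θ in multiples of π for the day 0 cells of each label. Apoe is lowest before Top2a peaks and highest near 1.86π and 1.87π.

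Within libraries, the genes with the highest median Pearson's r with Apoe from cell to cell were Dbi, Cst3 and Mt3, and those with the lowest were Ybx1 and Olig2. By Spearman's rank correlation Cst3 (median 0.53) was above Ttyh1 (0.42) and Prdx6 (0.40), while Dbi and Mt3 had 0.35 and 0.32, and 5 of the 10 leading genes stayed among the leading 10. Correlations are Pearson's r of log2 values over the 2534 to 4900 cells of a library, which share that library and its depths, and are a description only. Over the 5157 genes detected in at least 10% of the cells of every library, the 10 with the highest median r over the 8 libraries were as follows. Dbi, an acyl-CoA binding protein, led with a median of 0.57 (0.25 to 0.79). Cst3, the secreted protease inhibitor cystatin C, followed at 0.56 (0.41 to 0.68). Mt3 and Mt2, metallothioneins that bind zinc and copper, had 0.55 and 0.54. Then came the peroxiredoxin Prdx6 (0.54), carboxypeptidase E (Cpe, 0.53), the secreted matrix protein Sparcl1 (0.52), the membrane proteins Ttyh1 (0.50) and Itm2c (0.49), and the glutamate transporter Slc1a3 (0.49). By Pearson's r all 10 were positive in each of the 8 libraries, while by Spearman's correlation Slc1a3 kept its sign in 7. Without the day 4 library labelled Kmt2d+/βgeo 9 of the 10 remained among the leading 10.

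The leading genes of single libraries were not the same on all days, though Cst3 was among the first 3 in both libraries of days 0 and 2. At day 0 the leading genes were Cd63, a tetraspanin of late endosomes (0.48 and 0.43), Cst3 (0.48 and 0.41), the protease inhibitor Serpine2 (0.46 under the Kmt2d+/βgeo label) and the cholesterol exporter Abca1 (0.41 under the wild-type label). Cd63 kept values of 0.36 to 0.58 on later days. At day 2 they were Cst3 (0.64), Ttyh1 (0.57) and the bicarbonate transporter Slc4a4 (0.56) under the Kmt2d+/βgeo label, and Sparcl1 (0.62), Cst3 (0.60) and Cpe (0.59) under the wild-type label. Both day 4 libraries had Mt3 (0.77 and 0.73), Sparcl1 and Prdx6 in front. At day 8 Dbi led in both, with 0.64 and 0.79. In the day 8 library labelled Kmt2d+/βgeo most of these values were lower, for example 0.19 against 0.54 for Sparcl1 and 0.14 against 0.49 for Slc1a3, and this library was also the shallowest.

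The 5 genes with the lowest median r were Ybx1, an RNA-binding protein (-0.43), Olig2, a transcription factor of oligodendrocyte and neural progenitors (-0.43), Rev3l, the catalytic subunit of a translesion DNA polymerase (-0.42), the translation factor Eef1a1 (-0.42) and Ptma (-0.41). Over the 7 libraries without the one labelled Kmt2d+/βgeo of day 4, their medians were -0.39 to -0.42. Ybx1 and Ptma were negative in every library. Olig2, Rev3l and Eef1a1 were near 0 at day 0 and between -0.39 and -0.66 on days 2 and 4. Of the 43 ribosomal protein genes measured, 43 were negative in 5 libraries, 42 in both of day 4 and 31 in day 8 Kmt2d+/βgeo. Their median r was -0.05 to -0.32, against -0.01 to 0.01 over all genes counted. Because each cell is scaled to a fixed total of 8707.1, a gene holding up to 2.88% of the UMIs of a library lowers the others. In single cells Apoe held more, up to 1157 normalised counts in day 0 Kmt2d+/βgeo. With Apoe left out of the total the ribosomal medians were -0.04 to -0.26, against -0.05 to -0.32.

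**Figure D3:**
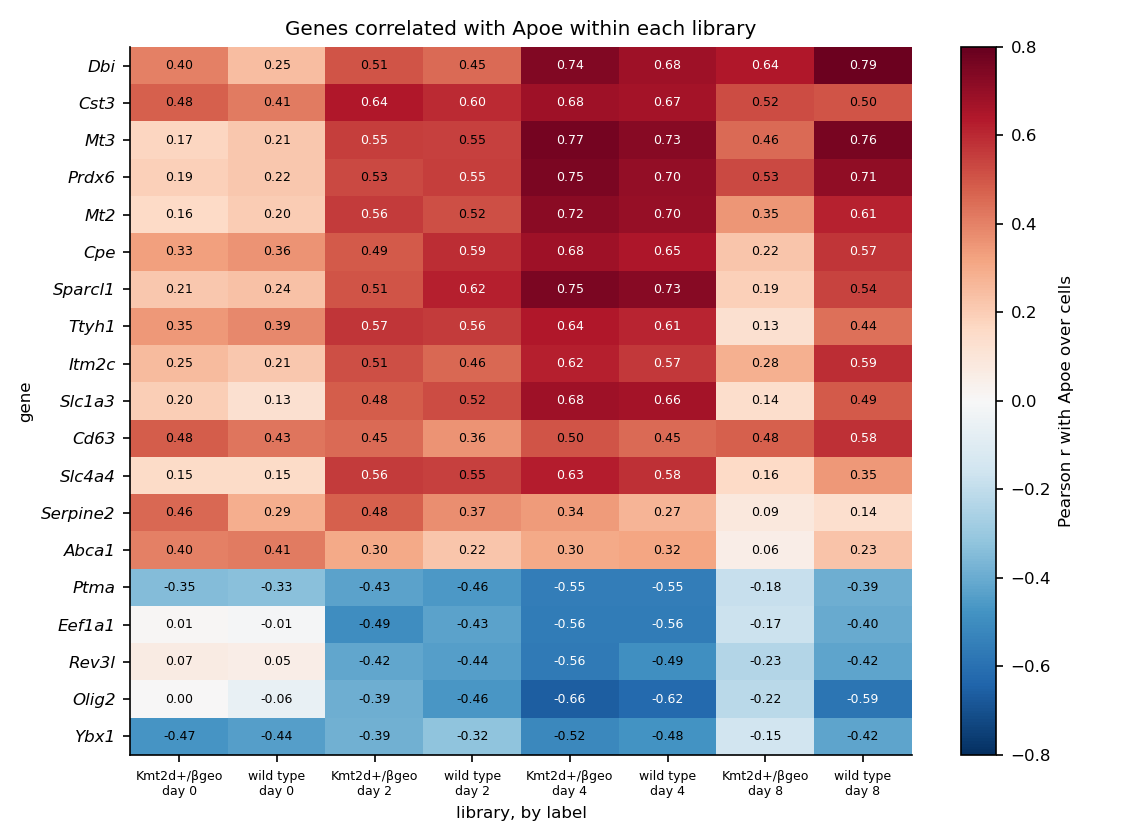
Pearson r with Apoe over the cells of each library (columns, by label and day) for the 10 genes with the highest and the 5 with the lowest median r and the leading 3 of each library (rows). Red is positive and blue negative; Dbi reaches 0.79 in day 8 wild type, and Olig2 goes from about 0 at day 0 to -0.66 at day 4.

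Cells without an Olig2 UMI carried more Apoe on average than cells with one in each of the 8 libraries, by log2 ratios of 0.06 (day 8 labelled Kmt2d+/βgeo) to 0.77. Olig2 was among the 5 genes with the lowest median r with Apoe over these same cells. The split therefore restates that r in UMIs and is no further support. On day 0 the medians with and without Olig2 were equal, at 2 and 1 Apoe UMIs, and the share of cells with an Apoe UMI was 75.5% with and 75.9% without, and 63.8% with and 61.3% without. At 3000 UMIs per cell, cells with an Olig2 UMI averaged 59.2 and 42.0 Apoe UMIs at day 2, and those without averaged 88.0 and 70.1. At day 4 the values were 56.2 and 53.8 with Olig2 against 95.9 and 87.3 without. At day 8 they were 36.5 against 37.98 under the Kmt2d+/βgeo label and 63.0 against 82.1 under the wild-type label. At day 0 the means were 4.69 against 5.15 and 1.88 against 2.99. Before thinning, cells with an Olig2 UMI were shallower in every library, with medians of 7046 and 7020 against 8039 and 7794 UMIs at day 2. Apoe rose with depth over the cells of that day (r of 0.27 in both libraries), and the part of depth was not tested. The share of cells with an Olig2 UMI fell from 71.6% and 84.7% at day 0 to 23.8% and 14.3% at day 8. Cells with an Olig2 UMI thus also had more Apoe on later days than on day 0, and in the thinned day 8 wild-type library 96.7% of them had an Apoe UMI.

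**Figure D4:**
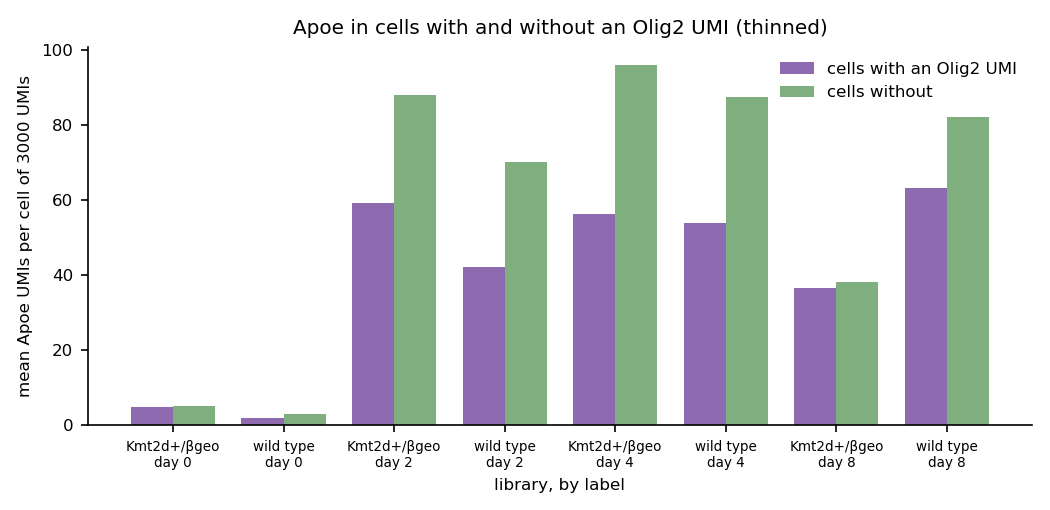
Mean Apoe UMIs per cell after thinning to 3000 UMIs (vertical axis, from 0) in cells with and without an Olig2 UMI, by library. Olig2 was picked for its low r with Apoe over these same cells. On days 2 and 4 the bars for cells without Olig2 are taller in every library; at day 8 under the Kmt2d+/βgeo label they are 36.5 and 37.98.

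A small tail of cells in each library had little Apoe. Cells below 10% of their library's median, a limit set after the values were seen, made up 3.46% and 3.89% of cells on day 0, 2.73% and 2.44% on day 2, 6.12% and 5.01% on day 4, then 3.74% and 3.33%. In day 8 Kmt2d+/βgeo 111 cells were this low, of which 38 had 3000 UMIs (1.73% of the 2200 that did). The following values are of 1 library, chosen after the values were seen for its Olig2 and Basp1 ratios, which were the highest of the 8. At 3000 UMIs the low cells of day 8 wild type averaged 2.08 Apoe UMIs against 82.1 in the rest. They had 4.62 Olig2 UMIs against 0.159, and 10.1 against 0.352 of Basp1, a protein of growing axons. Gap43, another growth-cone protein, stood at 1.56 against 0.141. Cst3 was at 4.68 against 39.5 and Mt3 at 3.33 against 64.7. Olig2, Cst3 and Mt3 were picked for their r with Apoe over cells that include these. The low cells were set by Apoe itself, so these contrasts restate that r and are no further support. On day 0 this limit was 0.592 and 0.273 UMIs at the median depth, below 1 UMI, and cells without an Apoe UMI numbered 78 and 178 beside 150 and 189 low cells, so no contrast with later days is drawn from them. In day 2 Kmt2d+/βgeo Basp1 was at 2.55 against 2.52. The low cells of day 8 wild type were shallower, with a median of 5376 against 7023 UMIs. Cells with a UMI of the neuronal nuclear protein Rbfox3, at most 5.41% of a library, averaged 65.5 and 54.1 Apoe UMIs at day 4 against 85.2 and 78.7 in the others. On day 8 the means were 36.4 against 37.7 and 69.5 against 79.6, and on day 0 they were 8.33 (6 cells) against 4.82 and 2.09 against 2.05.

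Over the 8 libraries, the genes whose mean log2 level was most like that of Apoe were Paxx, a DNA repair factor (r = 0.98), Fam189a2 (0.98), Hibadh, an enzyme of valine breakdown (0.98), Mcee (0.98), Il6st, the shared receptor subunit of interleukin-6 cytokines (0.97), Cst3 (0.97), Pdlim5 (0.97) and Gdpd2 (0.97). They were chosen among 1697 genes by this likeness, of which 67 had an r of at least 0.9. The 8 points share the low day 0 levels. Without the day 4 library labelled Kmt2d+/βgeo, 7 of the 8 stayed among the leading 8. Of the 8, Cst3 alone was also among the 10 leading genes within libraries; Paxx had a median r of 0.01 there.

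Among genes that load or remodel Apoe particles, Abca1, Pltp and Abca5 were higher at day 8 than at day 0 under both labels. Abca1, which hands cholesterol to apolipoproteins, had 0.620 normalised counts at day 0, 3.13 at day 2, 3.56 at day 4 and 3.22 at day 8 under the Kmt2d+/βgeo label. Under the wild-type label it had 0.713, 3.64, 3.47 and 2.67. Its within-library r with Apoe was positive in all 8 libraries, from 0.06 in day 8 Kmt2d+/βgeo to 0.41, and in 7 of 8 by Spearman's correlation or after thinning. In thinned day 8 Kmt2d+/βgeo cells, those with an Abca1 UMI averaged 36.9 Apoe UMIs and those without 38.7. Pltp, the phospholipid transfer protein, went from 0.0276 to 0.349 and from 0.0193 to 0.510 between days 0 and 8, and the transporter Abca5 from 0.0492 to 0.201 and from 0.0460 to 0.171. In all, 3 of the 4 genes compared in this list were higher at day 8 than at day 0 by an absolute log2 ratio of 1 under each label, and 0 were lower. The other, the lipoprotein lipase Lpl, had log2 ratios of -0.37 and -0.93. Pltp and Abca5 were below the minimum of 0.1 at day 0 and were compared only through their day 8 level, which favours a call of higher, so the count supports nothing about the list. By differences of mean log2 values 1 gene passed under each label. Among all genes compared, 19% were higher and 13.9% lower by this threshold under the Kmt2d+/βgeo label, and 16.3% and 10.9% under the wild-type label. Of 13 genes listed, 8 were not in the matrix, among them Abcg1. Of 17 further genes listed as apolipoproteins or alongside them, 2 were in it, Apoo and Apool, which bear the family name. Their day 8 log2 ratios, between -0.99 and -0.29, did not pass the threshold. The other 15, among them Clu, Apod and Apoc1, were not in the matrix, so nothing is said here of other lipid carriers.

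**Figure D5:**
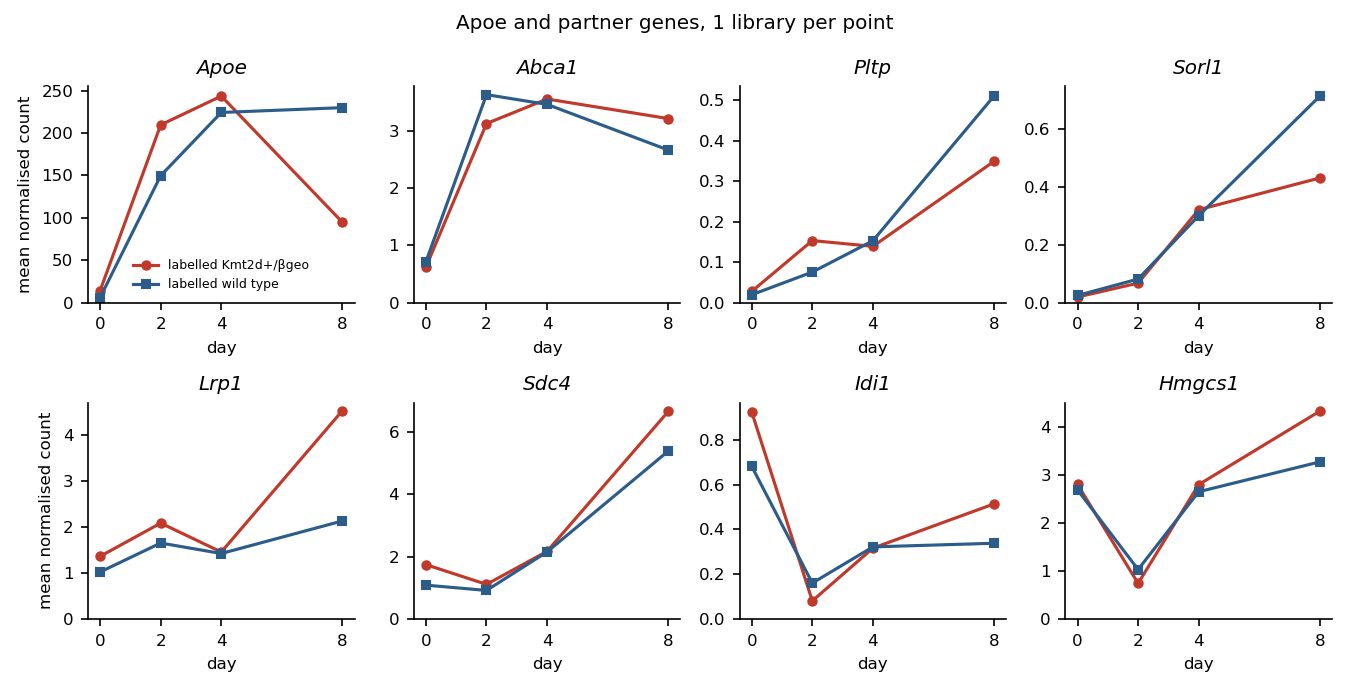
Mean normalised count (vertical axes, from 0) by day for Apoe and 7 genes of lipid loading, uptake and synthesis, with 1 library per point and colour by label. Abca1 rises with Apoe by day 2, while Idi1 and Hmgcs1 are lowest at day 2.

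Among receptors and their partners, 9 of 14 genes compared were higher and 3 lower at day 8 than at day 0 under the Kmt2d+/βgeo label, with a median log2 ratio of 1.25 against 0.11 over all genes. Under the wild-type label 8 of 15 were higher and 3 lower, with a median of 1.06 against 0.04. Over all genes 19% were higher and 13.9% lower under the first label, and 16.3% and 10.9% under the second. Sorl1, a sorting receptor that binds Apoe, went from 0.0192 to 0.431 and from 0.0247 to 0.714 normalised counts. Lrp1, a main uptake receptor of Apoe, went from 1.36 to 4.52 and from 1.02 to 2.13, and the heparan sulfate carrier Sdc4 from 1.74 to 6.65 and from 1.09 to 5.38. Sdc2, Lrp2, Lrp4, Lrp8 and Lrp1b also passed under both labels, and Sort1 (log2 ratio 1.21) under Kmt2d+/βgeo. Of the genes called higher, 5 and 4 were below 0.1 at day 0 and were compared only through day 8, and 2 of the 3 called lower under each label only through day 0, so these counts and medians are no support for the list. As differences of mean log2 values, which are smaller for genes with few UMIs, 2 and 1 genes of this list passed.

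Scarb1, a receptor of high-density lipoprotein, fell from 0.364 to 0.0765 and from 0.342 to 0.0715 between days 0 and 8, and the reelin adaptor Dab1 from 0.440 to 0.0823 and from 0.535 to 0.262. Between labels at day 8, Lrp4 (log2 ratio 2.35) and Lrp1 (1.09) were higher and Dab1 (-1.67) lower under Kmt2d+/βgeo.

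Several genes of cholesterol synthesis were lower at day 2 by ratios of mean counts, a comparison added after the values were seen. Of 16 genes compared, 12 were lower and 0 higher at day 2 than at day 0 under the Kmt2d+/βgeo label, with a median log2 ratio of -1.59, and 10 were lower and 0 higher under the wild-type label, with a median of -1.22. Among all genes 6.74% were lower and 10.7% higher under the first label, and 5.56% and 8.08% under the second. Of the genes called lower, 3 and 1 were below 0.1 at day 2, among them Idi1 under the first label. These were compared only through day 0, which favours a call of lower, so the counts and medians are no support for the synthesis list. Genes of cell division were also called lower in the same comparison. These were 17 of 21 and 15 of 20 S phase genes, with medians of -2.27 and -2.01. For G2/M genes the counts were 17 of 20 and 16 of 20, with medians of -2.10 and -1.94. Of these, 9 and 8 S phase genes and 7 and 8 G2/M genes were below 0.1 at day 2. They were compared only through day 0, which favours a call of lower, so these counts and medians are no support for the 2 lists. Lbr is on both the synthesis and the G2/M list, and the part of cell division in the synthesis values was not tested. As differences of mean log2 values 0 of the 16 passed under either label. Idi1, an isomerase of isoprenoid synthesis, fell from 0.924 to 0.0811 and from 0.681 to 0.161. Cyp51, a demethylase of sterol synthesis, fell from 1.58 to 0.253 and from 1.43 to 0.296, on the same days. At day 8, 4 and 3 of 16 were lower than at day 0, beside 13.9% and 10.9% of all genes. Cyp51 and Lbr were among them under both labels, with Lbr below 0.1 at day 8 and so compared only through day 0. Hmgcs1 had returned to 4.33 and 3.27 from 0.744 and 1.03.

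The within-library r of these genes with Apoe was small. At day 0 it was negative for Sqle (-0.21 and -0.28), Idi1 (-0.18 and -0.25) and Cyp51 (-0.14 and -0.24), and in the later libraries it lay mostly near 0. Among genes that handle cholesterol inside cells, 3 of 12 were higher and 1 lower at day 8 under the Kmt2d+/βgeo label, and 4 of 14 and 2 of 14 under the wild-type label, beside 19% and 13.9%, and 16.3% and 10.9%, of all genes. Of those called higher, 1 and 2 were below 0.1 at day 0 and were compared only through day 8, Gramd1b under both labels, so these counts are no support for the list. Of these genes, 1 and 0 passed as differences of mean log2 values. The caveolin Cav1 was raised most at day 2, from 0.0414 to 0.914 and from 0.0492 to 0.837, and was at 0.0962 and 0.108 at day 8. Gramd1b, a sterol carrier of membrane contacts, had a day 8 log2 ratio of 3.17 under both labels. The lysosomal lipase Lipa had a day 8 log2 ratio of -1.43 under the wild-type label.

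Among regulators of Apoe and sterol genes, 7 of 19 compared were higher and 1 lower at day 8 under the Kmt2d+/βgeo label, and 3 of 19 higher and 2 lower under the wild-type label. The shares over all genes were 19% and 13.9%, and 16.3% and 10.9%, so the wild-type counts were near the background. On the scale of mean log2 values 1 gene passed under each label. Srebf1 (log2 ratios 1.08 and 1.69), the retinoid receptor Rxra (1.49 and 1.28) and Sox9 (2.15 and 1.35) were higher under both. Of those called higher, 1 under each label was below 0.1 at day 0 and was compared only through day 8 (Rxra under the wild-type label and Ppard, a nuclear receptor, under the other). At day 2, Srebf2, the main SREBP of cholesterol synthesis (-1.67 and -1.19), and its retention factor Insig1 (-1.59 and -1.07) were lower under both labels. At day 8 Insig1 was higher under the Kmt2d+/βgeo label than under the wild-type label, with a log2 ratio of 1.33.

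Several astrocyte genes were also higher on later days. Of 13 such genes, 7 were higher and 1 lower at day 8 than at day 0 under the Kmt2d+/βgeo label, and 9 were higher and 0 lower under the wild-type label, beside 19% and 13.9%, and 16.3% and 10.9%, of all genes. On mean log2 values 5 passed under each label. Gja1, the gap junction protein connexin 43, went from 0.162 to 2.31 and from 0.170 to 3.41, and Cst3 from 12.2 to 66.7 and from 15.0 to 111. Glul, glutamine synthetase, was the 1 that fell under the Kmt2d+/βgeo label, from 1.23 to 0.451. The summed level of the 13 genes was 35.3 and 45.0 on day 0 and 152 and 216 on day 2. It was 181 in both day 4 libraries, then 113 and 169 on day 8, and its part in the Apoe levels was not tested. Cst3 made up much of it: without Cst3 the sum was 23.1 and 30.0 on day 0, 44.7 and 74.3 on day 2, 72.5 and 70.3 on day 4, then 46.1 and 58.6. At day 2 Apoe was higher, and the sum lower, under the Kmt2d+/βgeo label. Gfap, Aqp4 and Aldoc were not in the matrix.

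Markers of the other cell types were thinly covered. Of 20 microglia and macrophage genes only 1 was in the matrix, and of 13 vascular and fibroblast genes 0 were, so Apoe made by such cells was not analysed here. The 2 genes of the oligodendrocyte lineage were Olig2 and Cnp. The 5 neuronal genes summed to 3.32 to 5.06 in all libraries, of which Map2 made up 2.85 to 4.00. Rbfox3 went from 0.00536 and 0.0174 on day 0 to 0.170 and 0.176 on day 4, then 0.113 and 0.0472 on day 8. Gap43 went from 0.373 and 0.367 on day 0 to 0.113 and 0.0601 on day 2, then 0.746 and 0.580 on day 8. The 6 progenitor genes summed to 58.8 to 128. In such data, more cells with Apoe and more Apoe per cell can be told apart only by the distribution over cells, given above.

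None of the measured genes beside Apoe was higher at day 8 than at day 0 by this threshold. Within 100 kb on chromosome 7, 5 other genes were in the matrix. Tomm40, 2125 bases away and encoding a channel of the mitochondrial outer membrane, had 1.90 and 1.46 normalised counts on day 0 and 0.837 and 0.839 on day 8, which passed the threshold under the Kmt2d+/βgeo label alone (log2 ratios -1.18 and -0.80). Clptm1, Relb, Clasrp and Nectin2 stood at 0.12 to 1.48 in all libraries, with day 8 log2 ratios between -1.10 and 0.08. Under the Kmt2d+/βgeo label Tomm40, Clasrp (-1.10) and Nectin2 (-1.02), 3 of the 5, were lower by the threshold, beside 13.9% of all genes, and under the wild-type label 0 of 5 were. Their median within-library r with Apoe was between -0.06 and 0.07.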

How the data were processed

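The 8 droplet libraries (10x Chromium 3′ v3) held cultured mouse dentate gyrus progenitors, 1 per genotype and day. Per the labels, the authors counted UMIs with alevin (Salmon 1.3.0) on GRCm38 and processed them with Seurat 3.2.2. Per the study's methods they kept spliced counts, removed low-quality cells, outliers and likely doublets, and left out mitochondrial and rarely detected genes. No further doublet caller was run. The deposited matrix holds log2(normalised count + 1) for 9140 genes and 30408 cells, and the deposited cell table gives the authors' estimated count of total UMIs per cell. Values were turned back to normalised counts. These were divided by the commonest nonzero value of the cell, taken as 1 UMI; 86.8% of nonzero values were then within 0.01 of a whole number.

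Counts were thinned to 3000 UMIs where stated (seed 1). Ratios compare mean normalised counts of genes with a mean of at least 0.1 in either library and were counted from an absolute log2 ratio of 1. Intervals are exact 95% Poisson, binomial (Clopper-Pearson) or conditional ones. PCR copies are removed by UMIs, so intervals cover counting error only. Named genes were Apoe, the 10 highest and 5 lowest by median within-library r, the leading 3 of each library, the 8 most like Apoe over libraries (mean of at least 0.1 and a range of at least 0.5 in mean log2), genes within 100 kb, and members of 15 lists. Basp1 falls outside this rule and was named after its values were seen. Apoe and the lists were chosen with earlier results of these data known. Alternatives changed the scale, pooling, thinning, cell total, top cells, correlation measure, loess span (0.3 or 0.5) and minimum mean. Scripts recovered planted changes in simulated data. Python 3.11.15, numpy 2.4.6, scipy 1.17.1 and R 4.3.3 were used. Some list members are counted but not reported here by name.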

Additional observations from a re-analysis of the deposited data

Results flagged for a closer look

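The difference in Apoe between labels had opposite signs at the 2 ends of the time course. The log2 ratio of the library labelled Kmt2d+/βgeo over that labelled wild type was 1.26 at day 0 and -1.28 at day 8. With 1 library per genotype and day, the difference between the days was not tested. Depth differed too: at day 8 the Kmt2d+/βgeo label had the lowest depth of all. With each cell at 3000 UMIs the log2 ratio of that day was -1.08. Thinning left out 765 of 2965 cells under the Kmt2d+/βgeo label and 4 of 3212 under the wild-type label. Those left out were the shallowest cells. In the Kmt2d+/βgeo library the shallowest bin had the lowest mean Apoe, 52.6, so -1.08 is of another set of cells than -1.28.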

How the results depend on the processing

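All 50 alternative values of the 10 Apoe ratios kept their direction, and 49 kept their side of an absolute log2 ratio of 1. For 8 of them the shift from the main value was smaller than the distance from the pooled ratio to its counting limits. Those limits leave out the spread of Apoe over cells and also that between cultures, which is unknown. Values follow in the order of days 2, 4 and 8 over day 0 labelled Kmt2d+/βgeo, the same labelled wild type, then Kmt2d+/βgeo over wild type. As differences of mean log2 values they were 4.46, 4.77, 3.31, 4.71, 5.43 and 5.62, then 0.75, 0.51, 0.0929 and -1.56 for days 0, 2, 4 and 8. As ratios of pooled UMIs they were 4.23, 4.42, 3.13, 4.998, 5.56 and 5.53, then 0.48, 0.11 and -1.15 for days 2, 4 and 8. After thinning they were 3.91, 4.12, 2.96 and 4.65 (day 2 labelled wild type), then 1.23, 0.49 and -1.08 for days 0, 2 and 8. With Apoe left out of the cell total they were 3.93 and 4.14 (days 2 and 4), 4.70, 5.29 and 5.33, then 0.50 and -1.30 for days 2 and 8. Without the 5% of cells with most Apoe they were 4.53, 4.80, 3.39, 5.19, 5.83 and 5.88, then 1.14, 0.48 and -1.36 for days 0, 2 and 8. The cause of these shifts was not tested.

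Of the 10 leading correlated genes, 5 were also among the leading 10 by Spearman's rank correlation, 10 after thinning, 9 given total UMIs and 9 with Apoe left out of the total. The fitted range of Apoe along the cell cycle at day 0, both libraries pooled, was 0.94 with a span of 0.3 and 0.72 with 0.5.

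Counts of genes past the threshold depended on the scale, which shrinks ratios of low genes when log2 values are averaged. With a minimum mean of 0.5 the counts over all genes went from 1308 to 623 and 1016 to 505 (day 2 over day 0, Kmt2d+/βgeo first), 2555 to 1302 and 2110 to 1071 (day 8 over day 0) and 369 to 176 (between labels at day 8). As differences of mean log2 values they were 100, 71, 273, 225 and 30. For the lists at day 8 over day 0, labels in the same order, a minimum of 0.5 left 1 loading gene of 3 (first label), 5 of 12 and 5 of 11 receptor genes, 1 of 4 synthesis genes (first label) and 3 of 6 cholesterol handling genes (second label). Differences of mean log2 values left 1 of 3 and 1 of 3 loading genes, 2 and 1 receptor genes, 1 and 1 regulators, 0 and 0 synthesis genes, 1 and 0 handling genes, and 5 and 5 astrocyte genes. At day 2, a comparison added after seeing the data, the synthesis genes went from 12 to 7 with a minimum of 0.5 (first label) and from 12 and 10 to 0 and 0 as differences of mean log2 values. No paired analysis was possible because each genotype and day has 1 library, so that the groups compared share 1 replicate number at most, and the results come from no test. Genotypes were not compared over days taken as pairs.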
